A study of Homo sapiens with 3 samples.

Results

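Antisense long noncoding RNAs were followed in T47D, a line of human luminal breast cancer cells, as the genes whose symbol ends in -AS1 and that had at least 1 array probe set annotated to them alone. There were 706 such genes, measured by 968 probe sets, of 19775 genes with a probe set of their own. A further 19 probe sets named an -AS1 gene together with another gene and were not used. Current gene records classed 699 of the 706 as long noncoding RNA and 4 as antisense RNA or transcribed pseudogene, and 3 had no matching record.

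Cells were kept for 4 h in medium with 10% charcoal-stripped serum. They were then given the synthetic peptide ERα17p at 1 µM, estradiol at 1 µM, or 0.1% ethanol as the vehicle, each for 3 h. ERα17p copies a short stretch of estrogen receptor α that binds calmodulin, and estradiol is the natural ligand of that receptor. The labels do not say whether the treated cells also received ethanol. Each condition was measured on 1 Affymetrix HG-U133 Plus 2 array, which leaves the spread between cultures unmeasured, and no test was made. A difference is a log2 value, if the scale was read rightly, averaged over the probe sets of a gene, and an SD is the spread over those probe sets. The deposited values lie around 0, relative to a baseline that is not stated, so they show differences between arrays and hold no absolute level. Whether a given antisense RNA lay above background could therefore not be read.

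An antisense RNA is transcribed from the DNA strand opposite to another gene, the sense gene, whose name it carries. Some arise head to head with the sense gene, and others run through its body. Members of this class are known to act on the sense gene in cis by altering chromatin or transcription, by pairing with its messenger RNA, or on distant targets, and for most of them no function is known. In luminal breast cancer, DSCAM-AS1 is known as an abundant RNA whose level depends on estrogen receptor α. Each antisense RNA was set beside its sense gene, the symbol without -AS1, which gave 652 pairs with both partners measured. For the other 54 no sense gene was measured under that symbol. Probe sets were assigned by the platform annotation, and the strand that each -AS1 probe set detects was not checked. Like differences in a pair were therefore not shown to come from separate RNAs.

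Of these pairs, 149 had transcription starts on opposite strands within 1000 bases of each other in the RefSeq promoter table (GRCh38.p14). Another 267 overlapped with starts further apart, 15 lay on opposite strands without overlap, and for 221 the table did not hold both starts. Overlap was looked at only where starts lay further apart, so pairs with close starts can overlap too. The promoters of 4 antisense RNAs with close starts, from 250 bases before to 50 after the start, are shown for what their RNAs did. ELOVL2-AS1 was the member that differed most with ERα17p. DEPDC1-AS1 and TMPO-AS1 were higher than vehicle together with their sense genes, and TMEM254-AS1 was lower while its sense gene differed little. Capitals mark each match to a motif searched on both strands, and each sequence is given 5′ to 3′ on the strand of the antisense RNA.
ELOVL2-AS1, chr6:11043508-11043807, plus strand: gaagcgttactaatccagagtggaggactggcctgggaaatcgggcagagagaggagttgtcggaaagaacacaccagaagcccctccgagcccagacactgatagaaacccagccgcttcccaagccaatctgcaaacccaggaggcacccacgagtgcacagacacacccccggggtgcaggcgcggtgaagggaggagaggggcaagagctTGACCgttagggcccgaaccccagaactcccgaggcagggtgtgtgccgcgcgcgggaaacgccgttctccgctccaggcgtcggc
DEPDC1-AS1, chr1:68496426-68496725, plus strand: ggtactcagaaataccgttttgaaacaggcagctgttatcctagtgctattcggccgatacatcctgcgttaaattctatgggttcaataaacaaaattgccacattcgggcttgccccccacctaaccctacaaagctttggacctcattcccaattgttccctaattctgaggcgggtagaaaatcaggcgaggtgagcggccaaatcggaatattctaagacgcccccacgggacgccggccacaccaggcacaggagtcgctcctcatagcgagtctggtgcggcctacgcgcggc
TMPO-AS1, chr12:98516177-98516476, minus strand: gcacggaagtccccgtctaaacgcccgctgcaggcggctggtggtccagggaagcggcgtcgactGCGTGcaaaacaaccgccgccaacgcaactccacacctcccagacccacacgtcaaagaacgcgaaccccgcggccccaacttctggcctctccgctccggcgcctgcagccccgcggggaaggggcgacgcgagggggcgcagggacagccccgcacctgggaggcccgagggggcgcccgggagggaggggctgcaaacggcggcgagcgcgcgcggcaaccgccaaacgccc
TMEM254-AS1, chr10:80079144-80079443, minus strand: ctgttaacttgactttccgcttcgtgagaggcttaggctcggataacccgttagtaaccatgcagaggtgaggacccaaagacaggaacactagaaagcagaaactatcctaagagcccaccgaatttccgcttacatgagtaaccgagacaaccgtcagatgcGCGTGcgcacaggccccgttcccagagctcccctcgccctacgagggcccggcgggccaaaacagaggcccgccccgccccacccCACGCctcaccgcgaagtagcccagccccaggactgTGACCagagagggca
The motifs were the estrogen response element (GGTCA, any 3 bases, then TGACC), its core GGTCA, the aryl hydrocarbon receptor core GCGTG, the E box CACGTG and the cAMP response element TGACGTCA. The core GGTCA is part of the full estrogen response element. The ELOVL2-AS1 promoter held 1 GGTCA core, the TMPO-AS1 promoter 1 GCGTG, and the TMEM254-AS1 promoter 1 GGTCA core and 2 GCGTG. The DEPDC1-AS1 promoter held 0 matches to these motifs. Among the 531 -AS1 promoters in the table, 37.5% held GGTCA and 39.9% held GCGTG, against 37.7% and 36.3% of all 27305 promoters of the same length. The full element was found in 1 of the 531 (0.188%) and in 0.0659% of all promoters. The E box was found in 7.91% and the cAMP response element in 2.82% of the -AS1 promoters, against 7.43% and 1.98% of all. The shares in -AS1 promoters were thus near those in all promoters for the GGTCA core and the E box, and a match is only a match of letters.

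Values were more widely spread on the vehicle array than on the treated ones. Over the -AS1 genes the SD of the values was 0.143 on the ERα17p array, 0.152 on the estradiol array and 0.258 on the vehicle array. Over all genes these SDs were 0.139, 0.130 and 0.371 on the ERα17p, estradiol and vehicle arrays. The 3′ less the 5′ control probe set of ACTB stood at −0.17, −0.29 and 0.52 on the same arrays. All these values are relative to the unstated baseline. The SDs are thus not the spread of signal on an array, and the ACTB values are no absolute 3′ to 5′ ratio. The 18S ribosomal RNA controls were higher than on the vehicle array by 1.76 ± 0.39 (SD, n = 3 probe sets) with ERα17p and by 1.87 ± 0.34 with estradiol. The part of these differences in the results against the vehicle was not tested. The comparison of ERα17p with estradiol does not use the vehicle array, and there the 18S controls differed by −0.12 ± 0.11. Of 7 luminal markers (ESR1, GATA3, FOXA1, KRT8, KRT18, KRT19 and EPCAM), 0 were past 1.5-fold in any of the 3 comparisons, and their levels could not be checked. Of 6 markers of other cell types (KRT5, KRT14, COL1A1, COL1A2, PECAM1 and PTPRC), 1 was past 1.5-fold, COL1A1 at −0.63 for estradiol minus vehicle.

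The antisense RNA that differed most with ERα17p was ELOVL2-AS1, the partner of ELOVL2, a fatty acid elongase that lengthens polyunsaturated fatty acids. Its probe set stood at −0.93 on the ERα17p array, 0.16 on the estradiol array and 0.80 on the vehicle array. The ERα17p array was thus the lowest of the 3 and the estradiol array lay between. The difference was −1.73 for ERα17p minus vehicle, −0.64 for estradiol minus vehicle and −1.09 for ERα17p minus estradiol. It was the most negative of all 706 members in the comparisons of ERα17p with vehicle and with estradiol, and between ERα17p and estradiol it was the only member at least 2-fold different. Such a size was reached there by 0 members higher and 1 lower, against 0.0607% and 0.086% of all genes. ELOVL2-AS1 had 1 probe set, so no second probe set checks these values.

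ELOVL2 itself, whose start lies 547 bases from that of ELOVL2-AS1 on the opposite strand, was measured by 2 probe sets that disagreed. The first stood at −0.47, −0.04 and 0.32 on the ERα17p, estradiol and vehicle arrays. The second stood at 0.24, 0.29 and 0.13 on the same arrays. The order of the arrays in the first was the same as for ELOVL2-AS1, with smaller steps, and in the second it was not. The mean difference of ELOVL2 was −0.34 ± 0.64 (SD, n = 2) for ERα17p minus vehicle and −0.24 ± 0.28 for ERα17p minus estradiol.

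As a group, the antisense RNAs lay close to the vehicle array after ERα17p. Their 5th and 95th percentiles were −0.54 and 0.53, with a median of 0.0025, where all genes had percentiles of −0.75 and 0.69 and a median of 0.0011. At least 1.5-fold higher than vehicle were 26 of 706 members, or 3.68%, where 6.88% of all genes were. At least 1.5-fold lower were 27 members, or 3.82%, against 8.76% of all genes. At least 2-fold higher were 4 members and at least 2-fold lower 4 (0.567% each), against 1.9% and 1.87% of all genes. The shares of antisense RNAs past either size thus lay below those of all genes, a difference that was not tested. Among genes with only 1 probe set, the shares past 1.5-fold were 3.48% higher and 4.26% lower for the 517 such -AS1 genes, against 5.61% and 11.8% for all 9252 such genes.

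**Figure D1:**
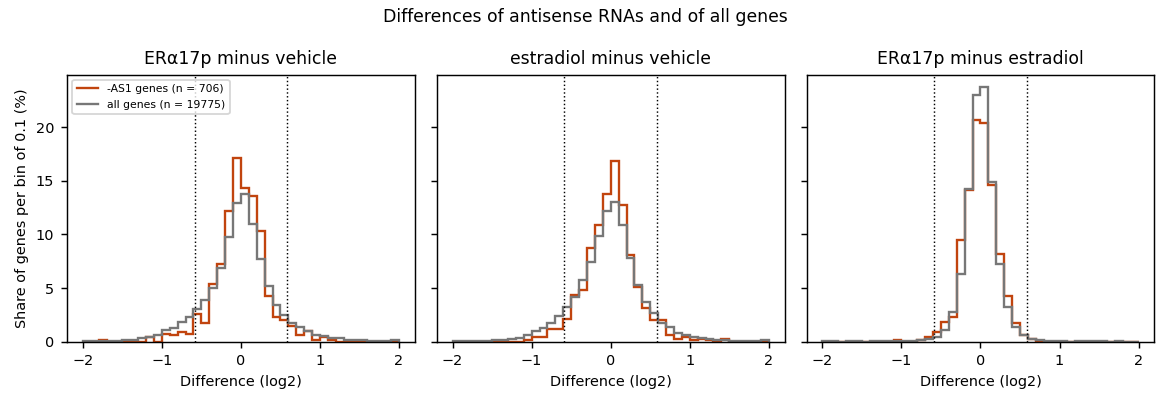
Differences of the 706 -AS1 genes (red) and of all 19775 genes (grey), as the share of genes in bins of 0.1 on the log2 scale, for the 3 comparisons. Values beyond the axis are counted in the end bins and dotted lines mark 1.5-fold. Against the vehicle the -AS1 genes hold smaller shares beyond the dotted lines than all genes, and for ERα17p minus estradiol both distributions are narrow.

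The 4 antisense RNAs at least 2-fold higher with ERα17p were NUTM2A-AS1, STK24-AS1, TMPO-AS1 and HMMR-AS1, each with 1 probe set. NUTM2A-AS1 stood at 0.27 on the ERα17p array, 0.09 on the estradiol array and −0.91 on the vehicle array, a difference of 1.18 for ERα17p minus vehicle. STK24-AS1, paired with a kinase of the STE20 family, stood at 0.57, 0.33 and −0.51 on the ERα17p, estradiol and vehicle arrays, a difference of 1.08. For both, the treated arrays lay close together and the vehicle array well below. STK24 itself differed by only 0.19 ± 0.20 (SD, n = 5).

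TMPO-AS1 stood at 0.22, 0.04 and −0.83 on the ERα17p, estradiol and vehicle arrays. Its sense gene TMPO encodes lamina-associated polypeptides, which tie chromatin to the nuclear lamina, and starts 653 bases away on the opposite strand. The difference for ERα17p minus vehicle was 1.05 for TMPO-AS1 and 0.87 ± 0.56 (SD, n = 5) for TMPO. HMMR-AS1 stood at 0.02, 0.20 and −0.99 on the same arrays. HMMR encodes a hyaluronan receptor that also acts at the mitotic spindle. The difference was 1.01 for HMMR-AS1 and 1.32 ± 0.61 (SD, n = 2) for HMMR. Both pairs were thus higher on each treated array than on the vehicle array, in antisense and sense probe sets alike, though the strand detected was not checked.

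Among the other members of the 15 highest with ERα17p, some had more than 1 probe set. PSMA3-AS1, paired with a proteasome subunit gene, was higher by 0.99 ± 0.38 (SD, n = 3), while PSMA3 stood at 0.07 ± 0.38 (SD, n = 3). FGD5-AS1 was higher by 0.89 ± 0.29 (SD, n = 2), OTUD6B-AS1 by 0.88 ± 0.37 (SD, n = 2) and UBAC2-AS1 by 0.84 ± 0.09 (SD, n = 2). In these last 3 every probe set was at least 1.5-fold higher. They were the only ones of the 189 members with more than 1 probe set for which that held. The share of all genes with more than 1 probe set that pass this rule was not computed for any comparison or direction. The sense gene OTUD6B, a deubiquitinase gene, was higher too, at 0.64, whereas FGD5 stood at −0.28 ± 0.66 (SD, n = 2) and UBAC2 at −0.31. ARHGAP5-AS1 (0.78) and GTF2A1-AS1 (0.82) were higher beside ARHGAP5 (1.05 ± 1.31, SD, n = 5) and GTF2A1, a general transcription factor gene (0.71 ± 0.52, SD, n = 2). KLRK1-AS1 was higher by 0.85, PARM1-AS1 by 0.85, USP3-AS1 by 0.73 and RAP2C-AS1 by 0.73. The 11 members outside the 15 highest lay between 0.60 and 0.72.

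Below the vehicle array, TMEM254-AS1, SLC25A25-AS1 and VASH1-AS1 joined ELOVL2-AS1 as the members at least 2-fold lower with ERα17p. TMEM254-AS1 stood at −0.11, 0.12 and 1.05 on the ERα17p, estradiol and vehicle arrays, a difference of −1.16 for ERα17p minus vehicle. TMEM254, which starts 528 bases away, stood at 0.15 ± 0.23 (SD, n = 2). VASH1-AS1 stood at −0.25, 0.01 and 0.87 on the ERα17p, estradiol and vehicle arrays, a difference of −1.12. VASH1, which encodes vasohibin, a tubulin carboxypeptidase and angiogenesis inhibitor, stood at −0.08 ± 0.27 (SD, n = 5). In both pairs the antisense RNA was lower and the sense gene stayed within 1.5-fold.

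SLC25A25-AS1 stood at −0.14, 0.02 and 0.999 on the ERα17p, estradiol and vehicle arrays, a difference of −1.14 for ERα17p minus vehicle. SLC25A25, a mitochondrial carrier of ATP-magnesium and phosphate, was lower as well, at −0.81. ANXA2R-AS1 and ANXA2R were lower by similar sizes, at −0.94 and −0.93. EPB41L4A-AS1 (−0.84 ± 0.05, SD, n = 2) and HOXB-AS1 (−0.81 ± 0.18, SD, n = 2), which lies in the HOXB homeobox cluster, were the only members with more than 1 probe set for which every set was at least 1.5-fold lower. ITPR3-AS1 (−0.99), PRDX6-AS1 (−0.96), EMC3-AS1 (−0.95), STARD7-AS1 (−0.95), ATP2A1-AS1 (−0.88), ICA1-AS1 (−0.80), TIAM1-AS1 (−0.78) and MZF1-AS1 (−0.77) lay further down the list, beside sense genes whose means were within 1.5-fold. Single probe sets of MZF1 and ICA1 were past it. Those of MZF1 stood at 0.53, −0.76, −0.59 and −0.73, and those of ICA1 at −0.79, −0.33, −0.26, 0.07, −1.30 and −0.10. The 12 members outside the 15 lowest lay between −0.75 and −0.59.

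**Figure D2:**
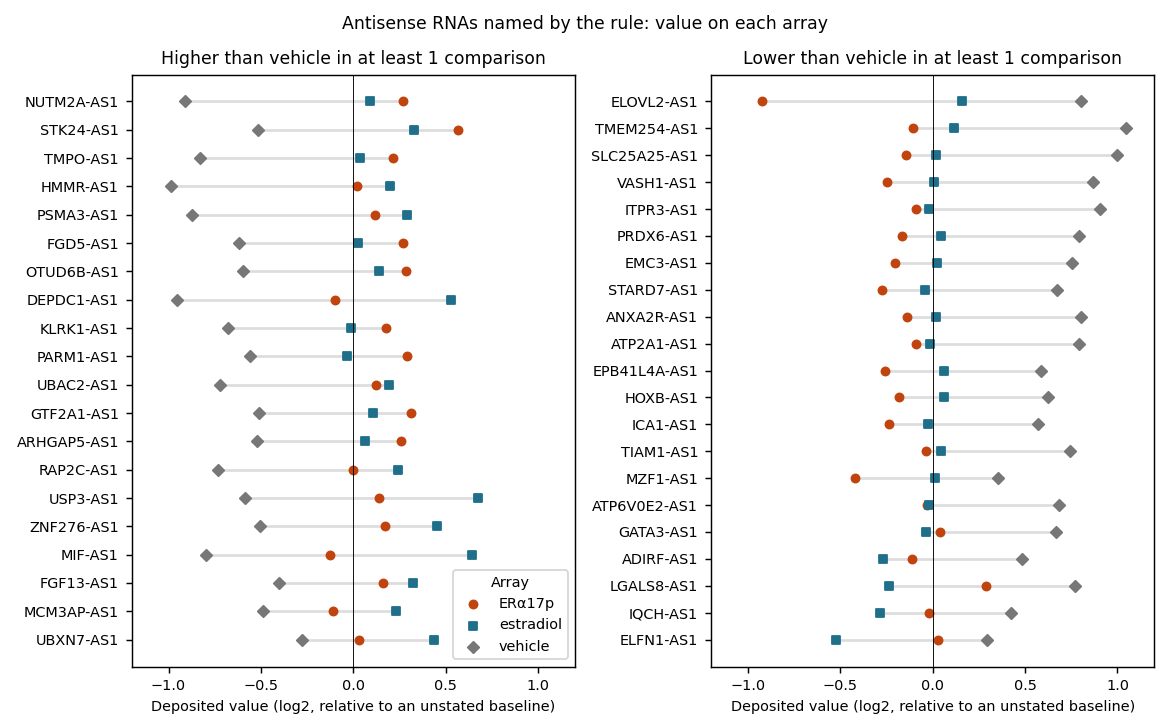
Deposited value on the ERα17p, estradiol and vehicle arrays (log2, relative to an unstated baseline) for the antisense RNAs that the naming rule selects against the vehicle, higher at left and lower at right. Each point is 1 array, and the grey line spans the 3 arrays. For most the treated arrays lie near each other and away from the vehicle array, while ELOVL2-AS1 stands at −0.93 on the ERα17p array and at 0.16 on the estradiol array.

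With estradiol, the members furthest above the vehicle array were DEPDC1-AS1, MIF-AS1 and USP3-AS1. Over all 706 members the 5th and 95th percentiles were −0.52 and 0.55, with a median of 0.012, where all genes had percentiles of −0.73 and 0.66 and a median of −0.0043. At least 1.5-fold higher were 31 members, or 4.39%, against 6.48% of all genes, and at least 1.5-fold lower 26, or 3.68%, against 8.42% of all genes. At least 2-fold higher were 6 and at least 2-fold lower 1, against 1.57% and 1.63% of all genes. For -AS1 genes with only 1 probe set, the shares past 1.5-fold were 4.26% higher and 4.64% lower. Those of all genes with 1 probe set were 5.17% and 11.8%. Because this comparison and the one above share the vehicle array, their values are not independent and are given side by side only.

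DEPDC1-AS1 stood at 0.53 on the estradiol array and −0.96 on the vehicle array, a difference of 1.48 for estradiol minus vehicle. DEPDC1, a gene expressed in mitosis, starts 406 bases away on the opposite strand and was higher by 1.54 ± 0.88 (SD, n = 4). On the ERα17p array DEPDC1-AS1 stood at −0.10, a difference of 0.86 from the vehicle, while DEPDC1 was higher by 1.59 ± 0.77. The antisense RNA thus stood lower with ERα17p than with estradiol, by −0.62, while its sense gene differed by only 0.05 ± 0.22 between these arrays.

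MIF-AS1, paired with the cytokine gene MIF, stood at 0.64 on the estradiol array and −0.80 on the vehicle array, a difference of 1.44, while MIF stood at −0.38. The probe set of MIF-AS1 is of a kind open to cross-hybridisation, and MIF-AS1 is lost where such probe sets are left out. USP3-AS1, paired with a deubiquitinase gene, stood at 0.68 and −0.59 on the estradiol and vehicle arrays, a difference of 1.26, while USP3 stood at 0.19 ± 0.06 (SD, n = 2). Both were single probe sets without a like difference in the sense gene. The other members at least 2-fold higher with estradiol were HMMR-AS1 (1.19, beside HMMR at 1.36 ± 0.73, SD, n = 2), PSMA3-AS1 (1.16 ± 0.71, SD, n = 3) and NUTM2A-AS1 (1.001). RAP2C-AS1 was higher by 0.97, ZNF276-AS1 by 0.96 ± 0.22 (SD, n = 2), UBAC2-AS1 by 0.92 ± 0.27 (SD, n = 2), TMPO-AS1 by 0.87 and STK24-AS1 by 0.84. OTUD6B-AS1 was higher by 0.74 ± 0.17 (SD, n = 2), FGF13-AS1 by 0.73 and UBXN7-AS1 by 0.72. MCM3AP-AS1 had a mean of 0.72 ± 0.86 (SD, n = 3), and its probe sets stood at 1.63, 0.63 and −0.09. Every probe set was at least 1.5-fold higher with estradiol in 4 of the 189 members with several, which were OTUD6B-AS1, UBAC2-AS1, ZNF276-AS1 and NUTM2B-AS1. NUTM2B-AS1 is given for that reason after its values were seen. The 16 members outside the 15 highest lay between 0.59 and 0.68.

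LGALS8-AS1, paired with the galectin gene LGALS8, was the only member at least 2-fold lower with estradiol. It stood at −0.24 on the estradiol array and 0.77 on the vehicle array, a difference of −1.01, and at 0.29 on the ERα17p array. LGALS8 stood at −0.43 ± 0.52 (SD, n = 6) for estradiol minus vehicle and at 0.01 ± 0.44 for ERα17p minus vehicle. Both partners thus stood higher with ERα17p than with estradiol, by 0.53 for LGALS8-AS1 and 0.45 for LGALS8. ELFN1-AS1 stood at −0.53 on the estradiol array, the lowest estradiol value of any member, and at 0.29 on the vehicle array, a difference of −0.82. It stood at 0.03 on the ERα17p array. SLC25A25-AS1 (−0.98), TMEM254-AS1 (−0.93), ITPR3-AS1 (−0.92), VASH1-AS1 (−0.86), ATP2A1-AS1 (−0.81), ANXA2R-AS1 (−0.79), PRDX6-AS1 (−0.75), ADIRF-AS1 (−0.75), EMC3-AS1 (−0.73), STARD7-AS1 (−0.71), IQCH-AS1 (−0.71) and ATP6V0E2-AS1 (−0.70) were also among the lowest with estradiol. In 0 of the 189 members with several probe sets was every set at least 1.5-fold lower, again without a share over all genes to set beside it. The 11 members outside the 15 lowest lay between −0.70 and −0.59.

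ERα17p and estradiol, at the same molar dose and time, differed in few antisense RNAs. The median difference was 5.5e-05, the SD over members was 0.206, and over all genes it was 0.197. At least 1.5-fold higher with ERα17p than with estradiol were 2 members, or 0.283%, against 0.521% of all genes, and at least 1.5-fold lower 5, or 0.708%, against 0.607% of all genes. These shares were near the background. Without the vehicle array, then, the spread of the antisense RNAs was about that of genes at large. Among genes with only 1 probe set, the SD was 0.217 for -AS1 genes and 0.229 for all such genes. Their shares past 1.5-fold were 0.193% higher and 0.967% lower for -AS1 genes, against 0.908% and 0.919%.

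The 5 lower members were ELOVL2-AS1 (−1.09), MIF-AS1 (−0.77), DEPDC1-AS1 (−0.62), MRTFA-AS1 (−0.62) and TMSB15B-AS1 (−0.61), each with 1 probe set. MRTFA-AS1, paired with an actin-regulated coactivator gene, stood at −0.45 on the ERα17p array and 0.17 on the estradiol array, against 0.14 on the vehicle array. TMSB15B-AS1, paired with a thymosin gene, stood at −0.08 on the ERα17p array and 0.53 on the estradiol array, against −0.12 on the vehicle array. In MRTFA-AS1 the ERα17p array was thus apart from the other 2, and in TMSB15B-AS1 the estradiol array was. The sense genes of all 5 stayed within 1.5-fold, between −0.24 and 0.05.

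The 2 higher members were ATXN1-AS1 and CLYBL-AS1. ATXN1-AS1, paired with the ataxin gene ATXN1, stood at 0.61 on the ERα17p array and −0.01 on the estradiol array, a difference of 0.62 ± 0.35 (SD, n = 2). Its 2 probe sets gave 0.87 and 0.37. CLYBL-AS1 stood at 0.45 on the ERα17p array and −0.15 on the estradiol array, a difference of 0.60. For ERα17p minus estradiol the probe sets of the sense gene ATXN1 stood at 0.25, 0.27, 0.22, 0.05 and 0.15. Those of CLYBL stood at 0.10, 0.14 and −0.56.

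NR2F1-AS1 was within 1.5-fold between the 2 treatments and is described because its sense gene differed more than any other sense gene in that comparison, a choice made after the values were seen. NR2F1 encodes the orphan nuclear receptor COUP-TFI. The 3 probe sets of NR2F1-AS1 stood at 0.47, 0.43 and 0.36 on the ERα17p array, at 0.00, −0.02 and −0.15 on the estradiol array, and at −0.30, −0.33 and −0.21 on the vehicle array. Every one of them was highest on the ERα17p array. The mean difference was 0.47 ± 0.03 (SD, n = 3) for ERα17p minus estradiol and 0.70 ± 0.11 for ERα17p minus vehicle. NR2F1 stood at 1.26, −0.32 and −0.26 on the ERα17p, estradiol and vehicle arrays, a difference of 1.58 for ERα17p minus estradiol from 1 probe set. Both partners were thus higher with ERα17p than with estradiol, and the sense gene by more.

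Across the 652 pairs, antisense RNAs and sense genes differed in the same direction slightly more often than not. For ERα17p minus vehicle this held for 369 pairs (56.6%), with 332 antisense RNAs and 367 sense genes above 0. For estradiol minus vehicle it also held for 369 pairs, with 335 antisense RNAs and 350 sense genes above 0. For ERα17p minus estradiol it held for 363 pairs (55.7%), with 329 and 328 above 0. Pearson's r across pairs was 0.19, 0.17 and 0.16 in these comparisons. These are descriptions over genes that share the same arrays, and genes are not replicates.

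Where the starts lay within 1000 bases, the 149 pairs had r of 0.31 for ERα17p minus vehicle, 0.21 for estradiol minus vehicle and 0.25 for ERα17p minus estradiol. In the 267 overlapping pairs with starts further apart, r was 0.23, 0.22 and 0.13 in the same comparisons. In the 221 pairs without both starts in the table r was 0.07, 0.08 and 0.11. In the 15 pairs without overlap r was 0.05, 0.02 and 0.55, from few points. The same direction was shared by 84 (56.4%), 76 (51%) and 90 (60.4%) of the 149 pairs with close starts, which were not sorted by overlap. In the 267 overlapping pairs with starts further apart it was shared by 155 (58.1%), 156 (58.4%) and 146 (54.7%). The arrangements thus had no fixed order over these measures. Of the antisense RNAs with close starts, 8 (5.37%) were at least 1.5-fold higher and 10 (6.71%) lower with ERα17p, and 10 (6.71%) and 6 (4.03%) with estradiol. Of the 267 overlapping ones with starts further apart, 9 were higher and 9 lower with ERα17p (3.37% each), and 11 (4.12%) and 12 (4.49%) with estradiol. Over all genes these shares were 6.88% and 8.76% with ERα17p and 6.48% and 8.42% with estradiol, so those with close starts lay near or below the background. None of these differences between arrangements was tested.

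Among sense genes at least 1.5-fold different from the vehicle, the antisense RNA was past it the same way in 3 to 8 pairs a direction. With ERα17p, 61 sense genes were at least 1.5-fold higher, and the antisense RNA of 8 (13.1%) was too, against 3.53% of antisense RNAs over all pairs. These were DEPDC1-AS1, HMMR-AS1, TMPO-AS1, OTUD6B-AS1, GTF2A1-AS1, ARHGAP5-AS1, NR2F1-AS1 and FRMD6-AS1. Of 57 sense genes at least 1.5-fold lower with ERα17p, the antisense RNA was too in 3 (5.26%, against 3.83% over all pairs), SLC25A25-AS1, ANXA2R-AS1 and GAS6-AS1. With estradiol, both partners were higher in 4 of 47 pairs with a higher sense gene (8.51%, against 4.29% over all pairs), DEPDC1-AS1, HMMR-AS1, TMPO-AS1 and GTF2A1-AS1. Both were lower in 4 of 50 pairs with a lower sense gene (8.0%, against 3.83% over all pairs), ANXA2R-AS1, GAS6-AS1, TMEM44-AS1 and TNS2-AS1. These shares were not tested, both partners were read on the same arrays, and the strand that each -AS1 probe set detects was not checked. Counts of 3 or 4 pairs cannot be told from the shares over all pairs. The lists for ERα17p and estradiol share the vehicle array and several pairs, so they are not separate observations. Members of these lists that the naming rule does not cover, here FRMD6-AS1, TMEM44-AS1 and TNS2-AS1, are named because the counts are small, after the values were seen.

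The pairs were also read from the antisense RNA. Of the 23 antisense RNAs at least 1.5-fold higher with ERα17p that had a measured sense gene, 13 had a sense gene within 1.5-fold, and of the 25 lower ones 21 did. The other 10 and 4 had a sense gene past 1.5-fold in either direction, where 118 of all 652 sense genes (18.1%) were. With estradiol the counts within 1.5-fold were 24 of 28 and 20 of 25, where 97 of all 652 sense genes (14.9%) were past it. Opposite directions past 1.5-fold in both partners were seen in few pairs. With ERα17p they were GPC1-AS1 (0.72, GPC1 −0.64), NRSN2-AS1 (0.66, NRSN2 −0.83) and ASB16-AS1 (−0.65, ASB16 0.73), and with estradiol GOLGA4-AS1 (−0.69, GOLGA4 0.64), named after their values were seen. With ERα17p the antisense RNA was higher in 2 of 57 pairs with a lower sense gene, against 23 of all 652 pairs. It was lower in 1 of 61 pairs with a higher sense gene, against 25 of 652. With estradiol these counts were 0 of 50, against 28 of 652, and 1 of 47, against 25 of 652. Counts this small cannot be told from those over all pairs, and no test was made. Between ERα17p and estradiol, 0 pairs had both partners past 1.5-fold. Only 5 of the 652 sense genes (0.767%) were past it there, and of the antisense RNAs 2 higher (0.307%) and 5 lower (0.767%). With so few, the 0 says nothing about the pairs.

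**Figure D3:**
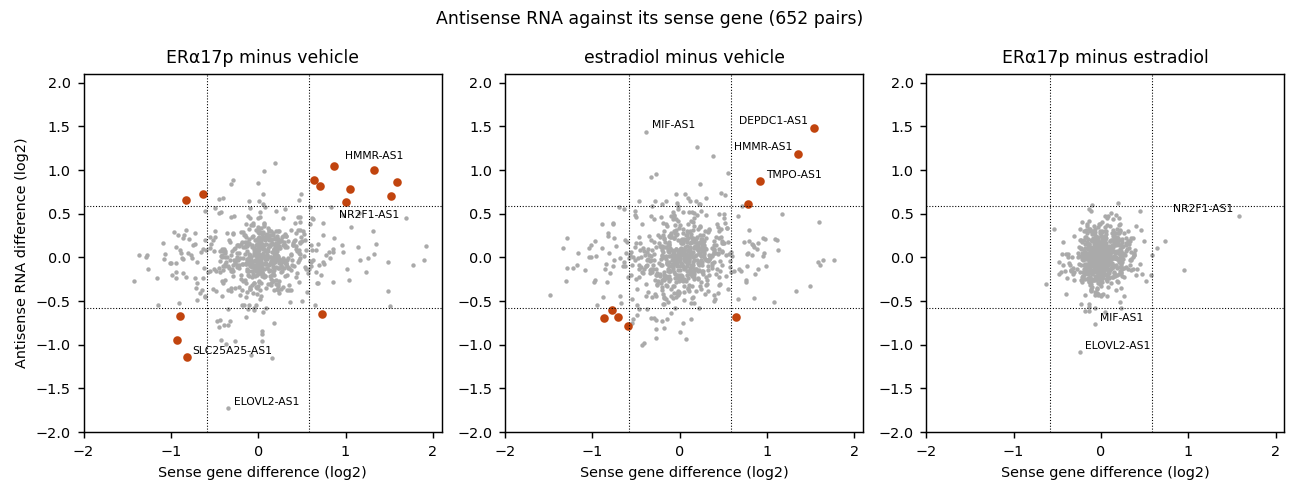
Difference of the antisense RNA (vertical) against that of its sense gene (horizontal), both log2, for 652 pairs in the 3 comparisons. Each point is 1 pair, dotted lines mark 1.5-fold and red points are pairs with both partners past it. Most points past 1.5-fold on 1 axis lie within it on the other. For ERα17p minus estradiol there is no red point, where few points pass 1.5-fold on either axis.

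A list of 24 antisense RNAs that have been studied in cells or tumours was examined, of which 23 were measured and RBM5-AS1 had no probe set of its own. With ERα17p 4 of the 23 were at least 1.5-fold higher (TMPO-AS1, HMMR-AS1, FGD5-AS1 and ZEB1-AS1), or 17.4% against 6.88% of all genes, and 2 lower (GATA3-AS1 and GAS6-AS1), or 8.7% against 8.76%, with a median of 0.12. With estradiol 6 were at least 1.5-fold higher, these 4 with DSCAM-AS1 and MCM3AP-AS1, or 26.1% against 6.48% of all genes, and the same 2 lower, or 8.7% against 8.42%, with a median of 0.18. Between ERα17p and estradiol 0 were past 1.5-fold, with a median of 0.03. The list was drawn up with results of these arrays known, so its counts are no separate support.

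DSCAM-AS1 stood at −0.07 on the ERα17p array, 0.23 on the estradiol array and −0.38 on the vehicle array. The difference was 0.31 for ERα17p minus vehicle and 0.61 for estradiol minus vehicle, from 1 probe set, and the estradiol array was the highest. DSCAM, a neuronal adhesion gene, stood at −0.83 ± 0.55 (SD, n = 3) and −0.20 ± 0.35 in the same comparisons.

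GATA3-AS1, the partner of the luminal transcription factor gene GATA3, had 2 probe sets that differed in size. The first stood at 0.07, −0.06 and 1.08 on the ERα17p, estradiol and vehicle arrays, and the second at 0.01, −0.01 and 0.25. In both the vehicle array was the highest. The mean difference was −0.63 ± 0.54 (SD, n = 2) for ERα17p minus vehicle and −0.70 ± 0.62 for estradiol minus vehicle. GATA3 stood at 0.06 ± 0.09 (SD, n = 3) and −0.14 ± 0.09 in the same comparisons. GAS6-AS1, paired with the gene of a ligand of the TAM receptor kinases, stood at −0.67 ± 0.65 (SD, n = 2) and −0.69 ± 0.60, and GAS6 at −0.90 ± 0.12 (SD, n = 2) and −0.71 ± 0.24.

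OIP5-AS1, also known as Cyrano, shows how far probe sets of a noncoding RNA can disagree. Of its 3 probe sets, 2 were higher with ERα17p than with vehicle, by 0.93 and 0.78, and the other stood at −0.36, which gave a mean of 0.45 ± 0.71 (SD, n = 3). With estradiol they stood at 0.85, 0.89 and −0.53. OIP5, a centromere factor gene, was higher by 1.69 with ERα17p and by 1.59 with estradiol. ZEB1-AS1 was higher by 0.65 and 0.68 in these comparisons while ZEB1, a gene of the epithelial to mesenchymal transition, stood at 0.01 ± 0.07 (SD, n = 4) and 0.10 ± 0.13. NNT-AS1 stood at −0.04 and −0.51 while NNT, the mitochondrial transhydrogenase gene, stood at 1.16 ± 0.89 (SD, n = 4) and 1.08 ± 0.82. CDKN2B-AS1, also known as ANRIL, stood at 0.25 and 0.38. The remaining members of the list, among them AFAP1-AS1, TTN-AS1, HAND2-AS1 and TPT1-AS1, lay between −0.48 and 0.47 in both comparisons.

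Over the 189 members with more than 1 probe set, the median SD over the probe sets of a gene was 0.19 for ERα17p minus vehicle, 0.22 for estradiol minus vehicle and 0.15 for ERα17p minus estradiol. All probe sets of a gene lay on the same side of 0 in 97, 91 and 87 of the 189, so in about as many members they did not. The like share over all genes was not computed. Most members past 1.5-fold rest on a single probe set, which was the case for 18 of 26 higher and 22 of 27 lower with ERα17p and for 22 of 31 and 24 of 26 with estradiol. Most members at large do too, as 517 of all 706 had a single probe set.

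Other noncoding classes, chosen by their symbols, were set beside the -AS1 genes. Of 839 LINC genes, long intergenic noncoding RNAs, 1.43% were at least 1.5-fold higher and 2.15% lower with ERα17p, and 1.91% and 2.15% with estradiol. Of 197 divergent transcripts (-DT), 2.03% were higher and 4.57% lower with ERα17p, and 3.55% and 5.08% with estradiol. Of 86 other antisense genes (-AS2 to -AS9 and -AS), 3.49% were higher and 3.49% lower with ERα17p, and 2.33% each way with estradiol. The shares of these 3 classes lay below those of all genes, as did those of the -AS1 genes. The 652 sense genes themselves were at 9.36% higher and 8.74% lower with ERα17p, and 7.21% and 7.67% with estradiol. Smaller classes were the 36 microRNA host genes, 25 intronic transcripts (-IT1), 11 SNHG genes and 6 overlapping transcripts (-OT1). Among the microRNA host genes, 0 were at least 1.5-fold higher and 1 lower (2.78%) with ERα17p, and 3 (8.33%) and 2 (5.56%) with estradiol. Among the SNHG genes, 0 were higher and 2 lower (18.2%) with ERα17p, and 1 higher and 1 lower (9.09% each) with estradiol. Of the intronic transcripts 0 were higher and 1 lower with ERα17p, and 1 each way with estradiol, and of the overlapping ones 0 were past that size. Some of these shares lay above those of all genes, from few genes.

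**Figure D4:**
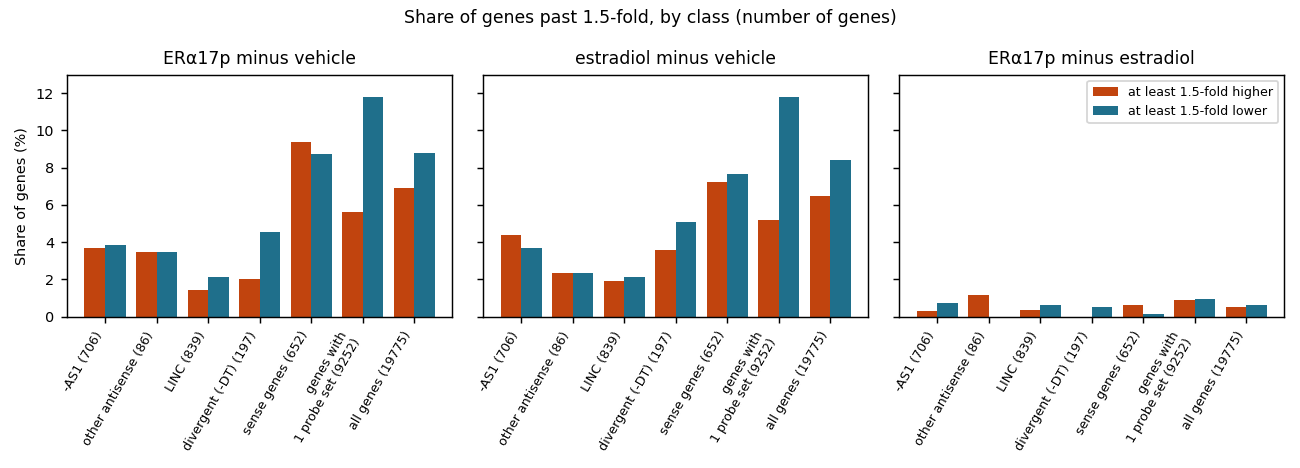
Share of genes (%) at least 1.5-fold higher (red) and lower (blue) in each comparison, by class, with the number of genes in brackets. The shares of -AS1 genes, 3.68% and 3.82% for ERα17p minus vehicle, lie below those of their sense genes and of all genes. For ERα17p minus estradiol every share is at or under 1.16%.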

How the data were processed

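Total RNA was hybridised to HG-U133 Plus 2 arrays, 1 each for ERα17p, estradiol and vehicle. The authors deposited RMA values, per the submitters' processing notes. The deposited values were taken as log2, since RMA gives log2 values, but no source used here gives the log base or the centring step. Comparing arrays assumes a common baseline. The number of arrays limits the precision.

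Of 54675 probe sets, 62 were controls, 41091 had 1 gene in the platform annotation, 1801 several and 11721 none. Probe sets of a gene were averaged. With 1 array per group no test was run. Genes were counted at 1.5-fold or more, and the share of all genes past the same size is given for each comparison. The computations were tested on simulated data. Promoters came from RefSeq tables (531 of 706 matched). Where promoter windows of opposite strands overlapped, the letters matched in 61 of 61 cases.

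Named were ELOVL2-AS1, the 15 members furthest from the vehicle each way and up to 8 each way between treatments, of at least 1.5-fold, and 24 studied RNAs. The sense gene of each could be given as well. Members, lists and the rule were chosen with earlier results of these data known. Alternatives were other sizes, the median of probe sets, leaving out probe sets open to cross-hybridisation (identifiers ending in _x_at or _s_at), centring and probe sets in place of genes. Plots were drawn with matplotlib 3.10.9, and values were computed with pandas 2.3.3, numpy 2.4.6 and scipy 1.17.1 under Python 3.11.15.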

Additional observations from a re-analysis of the deposited data

How the results depend on the processing

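No paired analysis was possible because each condition had 1 array. At 2-fold in place of 1.5-fold, the counts of higher and lower -AS1 genes were 4 and 4 for ERα17p minus vehicle, 6 and 1 for estradiol minus vehicle, and 0 and 1 for ERα17p minus estradiol. At a lower size, 0.32 on the log2 scale, they were 74 and 86, 91 and 94, and 37 and 35. Over probe sets in place of genes they were 45 and 45, 59 and 40, and 6 and 10, of 968 probe sets. The shares of all genes at the lower size and of all probe sets were not computed. Whether the -AS1 shares lay below them at these settings is therefore not known. With the median of the probe sets, without probe sets open to cross-hybridisation (670 members and 549 pairs left, MIF-AS1 lost and 4 in place of 5 members lower for ERα17p minus estradiol) and with centring on the median of all genes, every count stayed within 1.5 times. Medians of the members moved by at most 0.05 and counts of pairs with the same sign stayed within 1.5 times. Of 564 differences of named genes under these alternatives, 556 moved by at most 0.18, the median SD over probe sets, 8 moved by more and 0 called ones changed sign. Much of this was fixed in advance. For a member with 1 probe set the median changes nothing, and leaving out probe sets can only lose it. With 2 probe sets the mean equals the median, and centring shifts every member alike. The count is therefore no measure of robustness. The depth of signal over background is unknown, since no absolute level was kept, and most members rest on 1 probe set. No alternative replaces the vehicle array, and only ERα17p minus estradiol is free of it.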
